A study of Mus musculus with 16 samples.

Results

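A set of 140 genes was lower after 4 h of ERK activation in mouse embryonic stem cells and, by the values that define it, was still low after a following 2 h in a MEK inhibitor. The members were chosen by measured values. In CPM, the count of a gene scaled to library size with a trimmed-mean correction, averaged over the 4 libraries of a group, a gene had to hold at least 5 CPM before induction, to lie at least 0.6 lower on the log2(CPM + 1) scale at 4 h, and to regain at most 0.3 of that fall after the inhibitor. The gene symbols Ddit4, Nupr1 and Csf3r and those starting with Gm, Hist or Mir were left out. Of 52636 gene identifiers, 12215 passed a filter on low counts, 438 met the level and fall conditions, and 140 of these met all 3. Another 205 of the 438 regained between 0.3 and 0.7 of the fall and are called partly restored, and 93 regained at least 0.7 and are called restored. The 4h and rev values of the members, set against 0h or against each other, are therefore a description with no test.

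All 16 libraries came from CRAFR26, a mouse embryonic stem cell line that carries a c-RAF kinase construct switched on by 4-hydroxytamoxifen (4OHT). Every culture, those at 0h included, had spent 48 h in 250 nM of the FGF receptor inhibitor PD17 (PD173074) in place of the MEK inhibitor of the routine medium, which is N2B27 with the GSK3 inhibitor Chir and LIF. The groups were 0h (before induction), 2h and 4h in 250 nM 4OHT, and rev, which had 4 h of 4OHT and then 2 h with a MEK inhibitor added. Each group held 2 replicates from each of 2 clones of the line, clone 4 and clone 8. The labels name no culture given only the solvent of 4OHT and none kept 6 h in 4OHT without the inhibitor, so the inhibitor and the added 2 h cannot be told apart in rev.

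ERK is the last kinase of the RAF, MEK and ERK cascade. It phosphorylates transcription factors and their partners, and many genes of pluripotent cells are switched on or off soon after it becomes active. A MEK inhibitor stops further ERK activation, but an RNA regains its level only as fast as new transcripts are made and old ones decay. RAF-driven ERK output is known for fast negative feedback, through phosphatases and adaptor inhibitors that ERK itself induces.

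The promoters of the members 2510009E07Rik, Trpm6 and Prickle2, which are among the 5 largest falls, are shown because the members were searched for letters that they share. Each run holds 250 bases before and 50 bases from the annotated start, 5′ to 3′ on the gene's own strand, in build GRCm38.p6. The start is that of the RefSeq entry, which is the GENCODE start for 2510009E07Rik and lies 253 bp upstream of it for Trpm6 and 29 bp upstream for Prickle2. The windows are chr16:21694616-21694915 on the minus strand for 2510009E07Rik, chr19:18749480-18749779 on the plus strand for Trpm6 and chr6:92706135-92706434 on the minus strand for Prickle2. Capitals mark the GC-box GGGCGG on either strand, the only searched motif with a match in the 3 windows, and the other 2 windows have none.
2510009E07Rik: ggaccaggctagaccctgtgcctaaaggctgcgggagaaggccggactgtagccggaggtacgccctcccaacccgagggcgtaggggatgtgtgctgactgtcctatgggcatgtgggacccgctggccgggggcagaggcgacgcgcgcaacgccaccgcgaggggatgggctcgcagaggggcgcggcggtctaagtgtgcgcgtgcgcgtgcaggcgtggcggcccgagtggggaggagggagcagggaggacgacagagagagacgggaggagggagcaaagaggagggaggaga
Trpm6: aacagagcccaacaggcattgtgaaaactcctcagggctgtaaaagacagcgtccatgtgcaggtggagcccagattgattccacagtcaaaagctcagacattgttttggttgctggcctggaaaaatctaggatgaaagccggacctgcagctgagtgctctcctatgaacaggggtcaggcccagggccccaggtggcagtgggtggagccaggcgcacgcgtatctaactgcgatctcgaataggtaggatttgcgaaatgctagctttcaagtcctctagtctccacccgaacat
Prickle2: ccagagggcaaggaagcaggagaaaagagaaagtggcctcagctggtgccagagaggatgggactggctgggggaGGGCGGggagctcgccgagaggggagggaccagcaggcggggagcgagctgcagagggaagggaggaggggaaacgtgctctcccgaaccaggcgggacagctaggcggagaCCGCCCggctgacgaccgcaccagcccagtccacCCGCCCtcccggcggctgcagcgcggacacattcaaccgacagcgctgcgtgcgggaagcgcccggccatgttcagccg

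A RefSeq promoter entry was matched by symbol to 113 of the 140 members, and each of 18 motifs was counted on both strands of the same window in the members and in the 9218 matched promoters of tested genes. The GC-box stood in 59.3% of member promoters and 66.8% of tested promoters, CCAAT in 47.8% and 39.8%, the KLF-type CCCACCC in 23.9% and 21.1%, and the E-box CACGTG in 7.08% and 10.7%. The TATA box TATAAA stood in 3.54% of member promoters, 6.34% of tested promoters, 11.9% of those of partly restored genes and 7 of 70 of those of restored genes. The ETS motif CCGGAAGT stood in 3.54% of member promoters and 8.90% of tested promoters, with 2.5% in partly restored and 4.29% in restored genes, and the AP-1 motif TGANTCA in 6.19% and 4.25%. Matches were found in 3 or fewer member promoters for TGACGTCA (CRE), GTAAACA (FOX), GCGCATGCG (NRF1), GCGTGGGCG (EGR), AAGATGGCG (YY1) and TTCCNGGAA (STAT). In that order they stood in 1.77%, 2.65%, 1.77%, 1.77%, 0.885% and 0.885% of member promoters. In tested promoters these shares were 3.34%, 2.44%, 4.08%, 1.27%, 3.48% and 1.22%. No member promoter held CTTTGAT or the longer CTTTGATG that contains it (TCF/LEF), TGATGNAAT (ATF4), TCAAGGTCA (ESRRB) or ATGCAAAT (OCT4), against 2.41%, 0.640%, 0.380%, 0.260% and 1.42% of tested promoters. An EGR match can overlap a GC-box by its last letters. No motif was shared by a majority of members apart from the GC-box, which most tested promoters hold too. Median GC content of the window was 61.7% in members and 61.3% in tested genes, with a median of 21 CG pairs in both.

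Sequencing depth ran from 2172651 to 12680303 counts a library, and 8 gene models took 42.0% to 80.4% of them. One library, rev of clone 8 replicate 2, stood apart with 80.4% of its counts in those 8 models and a scaling factor of 0.463. Without this library the same rule gave 151 genes, of which 114 were among the 140. The opposite extreme was 4h of clone 4 replicate 1, with 42.0% and a factor of 1.47, and leaving it out gave 142 genes (108 shared). The mean share of those models was highest in the rev group (65.9%, SD 10.6) and lowest in the 4h group (54.1%, SD 9.31). The rule compares these 2 groups, and the part of this difference in the members' return was not tested. The labels do not say that replicates came from separate cultures, so p-values measure the spread between these samples. A list of 10 stem cell markers was detected in full and summed to 1937 to 2652 CPM in every library. A list of 9 fibroblast or feeder markers, of which Pdgfrb is 1, summed to 4.21 to 13.04 CPM, with Dcn and Postn at 0 throughout. A list of 8 markers of the 2-cell-like state, in which none was at 0 in every library, summed to 4.81 to 8.69 CPM at 0h, 11.5 to 13.8 at 2h, 15 to 18.2 at 4h and 7.95 to 18.9 in rev, and edgeR called 4 of its 5 tested genes higher at 4h. The 0h range did not overlap those of 2h and 4h, and the part of that state in the members' values was not tested. Lists of primitive endoderm and trophoblast markers summed to 64.1 to 131.7 and 32.0 to 54.3 CPM, and these ranges overlapped between all groups. Of 5 tested primitive endoderm markers edgeR called 1 lower and 1 higher at 4h, where 16.8% and 17.2% of all tested genes were. Most of the trophoblast sum was Tfap2c, which was called lower at 4h (log2 value -0.73), with means of 38.9 CPM at 0h and 23.8 at 4h. The other 3 of the 4 tested trophoblast markers were called higher at 4h. The median log2 value of the 4 was 1.16, and mean levels of Cdx2 were 1.32 CPM at 0h and 4.73 at 4h. The part of these markers in the members' values was not tested either. A list of 19 tested ERK feedback and immediate-early genes had a median log2 fold change over 0h of 2.14 at 2h and 2.01 at 4h, and its rev libraries stood at -1.58 relative to 4h. The counts come from whole cultures, in which fewer cells that express a gene and less RNA per cell cannot be told apart. Members were modest in depth, with a median of 47 counts over members and libraries and a lowest count of 2.

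Values in each library are given below in the order clone 4 replicate 1, clone 4 replicate 2, clone 8 replicate 1 and clone 8 replicate 2, in CPM, and gene positions are in GRCm38. The largest fall belonged to Pdgfrb (ENSMUSG00000024620, chromosome 18, 61045150 to 61085061, plus strand), which encodes the receptor tyrosine kinase for platelet-derived growth factor B. Its 0h libraries read 10.6, 9.85, 5.15 and 6.63 CPM, the 2h libraries 6.21, 3.5, 3.13 and 2.7, the 4h libraries 2.64, 3.04, 1.71 and 1.32 and the rev libraries 3.09, 3.69, 1.82 and 1.8. The 0h libraries of clone 4 were higher than those of clone 8, and within each clone every later library was below both 0h libraries. At 2h the gene was lower (log2 fold change of -0.97 ± 0.17 SE, n = 4 against 4, edgeR adjusted p = 7.05e-05). From 2h to 4h the fitted log2 value was -0.91 ± 0.22 SE, a description, since the 4h libraries chose the gene. The choice read the 0h libraries too, which favours lower values at 2h in this and every later 2h test of a member.

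Pou2f3 (ENSMUSG00000032015, chromosome 9, 43123939 to 43210369, minus strand) encodes a POU-domain transcription factor known from tuft cells and epidermis. Its 0h libraries read 16.6, 16.1, 22.8 and 21.6 CPM, the 2h libraries 8.93, 7.44, 12.8 and 16.7, the 4h libraries 3.74, 3.15, 9.49 and 10 and the rev libraries 5.86, 8.69, 8.78 and 11.3. Clone 8 was the higher clone, and all 4 rev libraries lay below all 4 of 0h. At 2h it was lower (log2 fold change of -0.71 ± 0.14 SE, n = 4 against 4, edgeR adjusted p = 0.000393), and its fitted log2 value from 2h to 4h was -0.95 ± 0.17 SE. In clone 4 the rev libraries stood above the 4h libraries, whereas in clone 8 they overlapped, a difference between clones of -1.02 ± 0.35 (SE) in log2 that did not pass (edgeR adjusted p = 0.808).

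2510009E07Rik (ENSMUSG00000043391, chromosome 16, 21649045 to 21694665, minus strand) is named only by its cDNA clone. Its 0h libraries read 29.9, 23.1, 21.4 and 21 CPM, the 2h libraries 11.1, 8.76, 7.86 and 10.1, the 4h libraries 9.68, 9.7, 8.35 and 6.31 and the rev libraries 12.8, 14.6, 6.79 and 9.01. The 2h and 4h ranges overlapped and both lay well below 0h. The 2h difference was a log2 fold change of -1.25 ± 0.13 SE, n = 4 against 4, edgeR adjusted p = 3.19e-09. From 2h to 4h its fitted log2 value was -0.22 ± 0.15 SE.

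Prickle2 (ENSMUSG00000030020, chromosome 6, 92370908 to 92706155, minus strand), a planar cell polarity protein, differed in the level of its 2h libraries. Its 0h libraries read 11.7, 12.8, 18.3 and 20.4 CPM, the 2h libraries 11.5, 14.9, 14.7 and 15, the 4h libraries 6.49, 3.74, 7.6 and 4.74 and the rev libraries 7.78, 5.0, 10.3 and 6.31. The 2h libraries overlapped those of 0h, and the 4h libraries lay below both groups. The 2h difference did not pass (log2 fold change of -0.25 ± 0.14 SE, n = 4 against 4, edgeR adjusted p = 0.212), and the fitted log2 value from 2h to 4h was -1.21 ± 0.17 SE. Pitpnc1, a phosphatidylinositol transfer protein, had like values, with 11.4, 11, 8.04 and 9.41 CPM at 0h, 11.3, 6.57, 8.28 and 8.38 at 2h, 4.07, 5.26, 3.61 and 3.16 at 4h and 4.58, 6.08, 3.31 and 2.7 in rev. Its 2h value was -0.11 ± 0.14 (SE) and its 2h to 4h value -1.19 ± 0.17 in log2 (edgeR adjusted p = 0.625 at 2h).

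Trpm6 (ENSMUSG00000024727, chromosome 19, 18749983 to 18892511, plus strand) encodes a channel kinase that carries magnesium. Its 0h libraries read 3.53, 4.48, 7.24 and 6.2 CPM, the 2h libraries 2.33, 3.94, 2.2 and 4.69, the 4h libraries 0.88, 1.75, 2.28 and 1.05 and the rev libraries 1.39, 0.434, 3.15 and 4.06. The values were low, between 2 and 66 counts a library, and the rev libraries ranged from below the 4h libraries to within the 0h range. The gene was lower at 2h (log2 fold change of -0.83 ± 0.25 SE, n = 4 against 4, edgeR adjusted p = 0.0151).

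**Figure D1:**
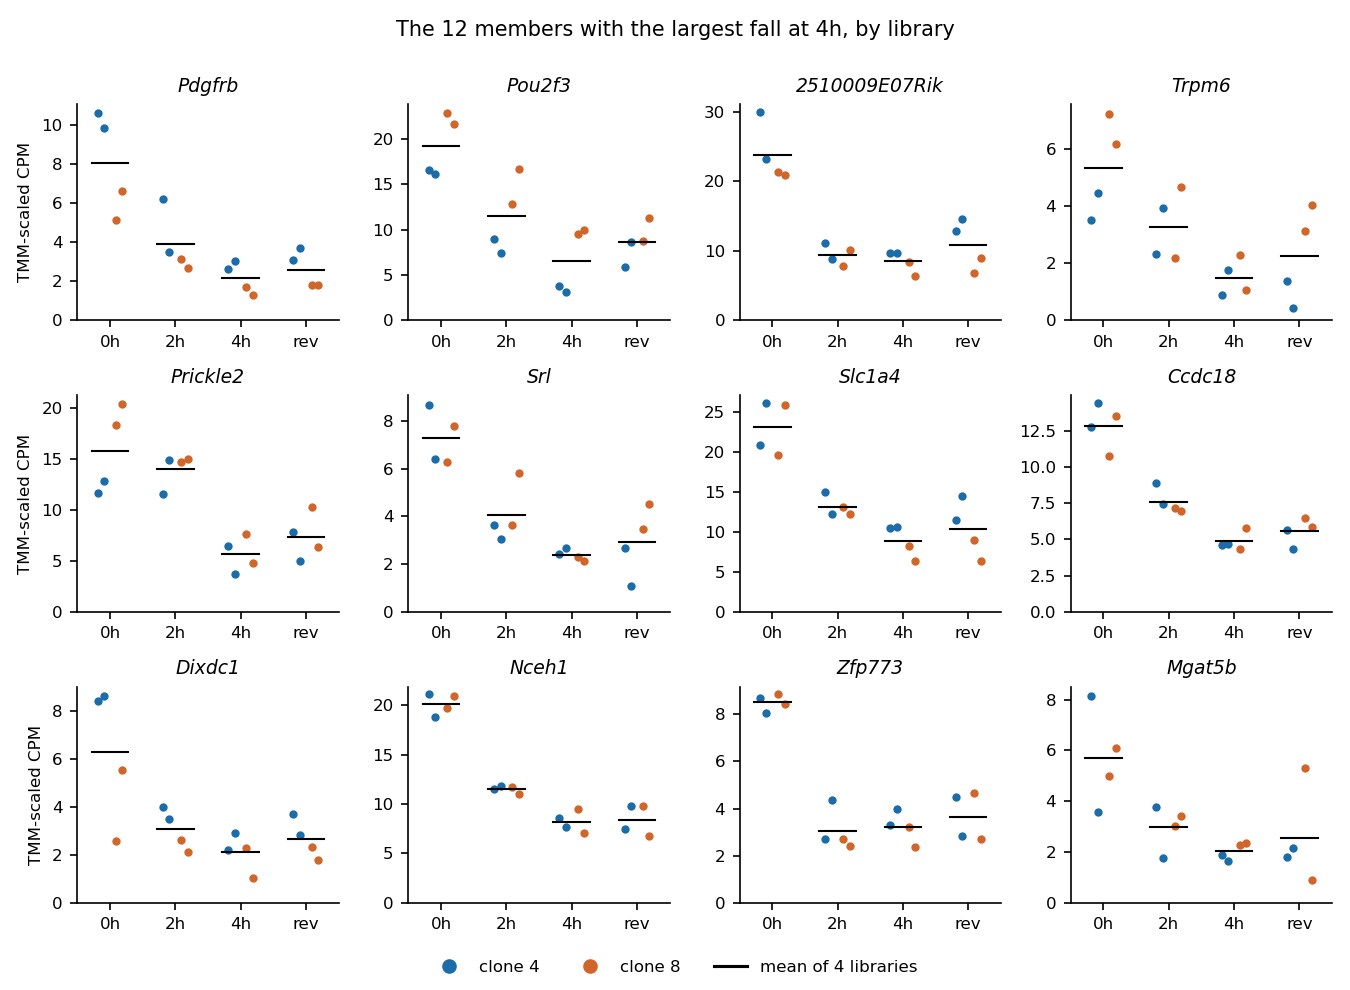
TMM-scaled CPM (vertical axis, from 0) of the 12 members with the largest fall at 4h in each library of the groups 0h, 2h, 4h and rev, coloured by clone, with the mean of 4 libraries as a bar. In the Nceh1 panel the 4h libraries lie inside the range of the rev libraries, and in the Prickle2 panel the 2h libraries stay within the 0h range or just below it.

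Over the 140 members, the median 4h minus 0h difference on the log2(CPM + 1) scale was -0.74, with a range from -1.51 to -0.61, and 20 members were at least 2-fold lower on that scale. The median rev minus 4h difference was 0.11, and the median share of the fall regained was 0.146. By value, 25 members were lower still in rev than at 4h. These numbers follow from the rule, and nothing is read from the calls there. At 4h, 138 members were called lower than 0h, where 16.8% of all tested genes were. Against 4h, rev was called higher for 1 member (7.93% of all genes), Gpt2, and lower for none (8.43% of all genes). An unadjusted p under 0.05 in edgeR was held by 12 of the 140 members and by 3569 of all 12215 genes. Against 0h, rev was called lower for 131 members (9.86% of all genes).

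The return itself was measured loosely for a single gene. The 95% interval of rev minus 4h had a median half-width of 0.396 in log2 and held 0 for 128 of the 140 members. It lay above 0 for 11 members and below 0 for 1, Rny3. For 133 members the interval reached a return of 30% of the fall, for 47 it stayed below a return of 50%, and for 6 it reached a full return. A gene's place on the low side of the 0.3 threshold was thus within its own error for most members. Just inside the return threshold were Gpt2 with a share of 0.2999, Arl4a with 0.298 and Bcl2l14 with 0.298, and just outside were Whrn with 0.305, Slc24a5 with 0.306 and Tmem177 with 0.308. At the fall threshold the nearest inside were Pdzrn3, Btrc and Sil1, all at -0.61, and outside Ctsf and Acss1 at -0.60 and Svil at -0.59. At the level threshold the nearest inside were Chid1, Dhrs7 and Ulbp1 at 5.01, 5.02 and 5.07 CPM, and outside Snord49b, Gpr137 and Igdcc4 at 4.98, 4.95 and 4.92 CPM. By name the rule removed Gm35315 and Gm20939, which met its values, whereas Ddit4, Nupr1 and Csf3r did not meet them, with regained shares of 0.315, 0.482 and 0.334.

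**Figure D2:**
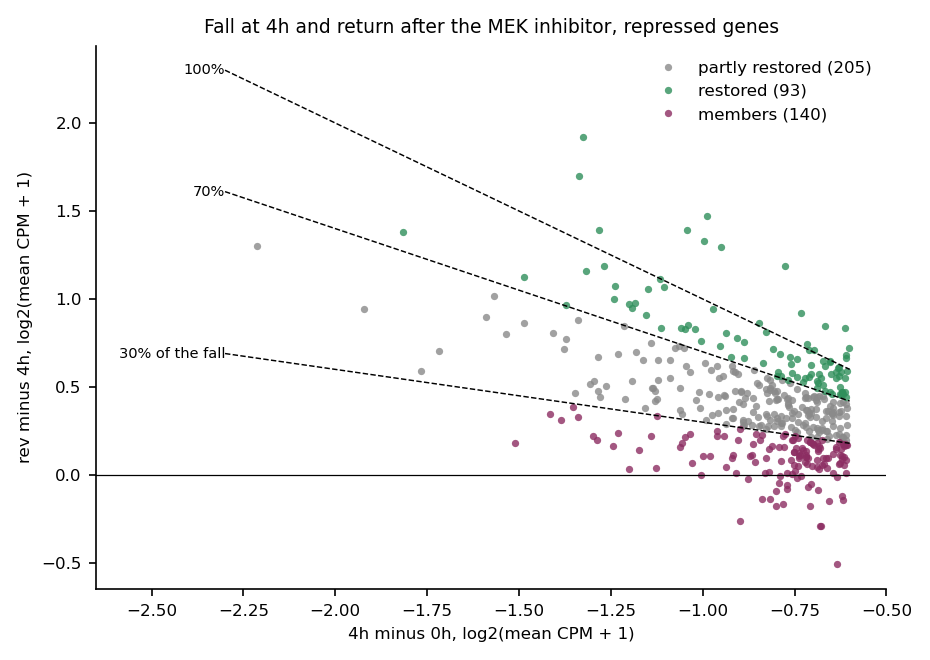
Each point is 1 of the 438 repressed genes, with the 4h minus 0h difference on the horizontal and the rev minus 4h difference on the vertical axis, both in log2(mean CPM + 1). Dashed lines mark a return of 30%, 70% and 100% of the fall, and the 140 members lie below the lowest line by the rule.

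The 2h libraries took no part in the choice, but the 0h libraries they are set against did, and a choice for high 0h values favours lower values at 2h. In edgeR, 89 of the 140 members (63.6%) were lower at 2h than at 0h and 0 were higher, against 9.68% and 11.4% of all tested genes. The median log2 fold change was -0.50 in members and -0.02 over all genes, and 138 members were below 0h by value, where 6371 of all 12215 genes were. All 4 libraries of 2h lay below all 4 of 0h for 51 members (36.4%), where 6.62% of all genes did so. The partly restored genes gave 154 of 205 called lower (75.1%) and the restored genes 67 of 93 (72.0%). The difference between these shares was not tested. The median share of the 4h fall already present at 2h was 0.588 in members, 0.608 in restored genes and 0.582 in partly restored genes. The 2h test was also made in libraries that took no part in the choice, with 2 libraries a group, a comparison added after the data were seen. Of the 188 genes that the rule gave in clone 4 alone, 54 were lower at 2h in clone 8 by edgeR (28.7%, against 7.83% of all genes), and 168 were below 0h by value. Of the 188 that it gave in clone 8 alone, 26 were lower at 2h in clone 4 (13.8%, against 2.34%), and 166 were below by value. The median log2 fold changes were -0.37 and -0.34, against -0.0204 and -0.00367 over all genes, and no gene of either set was called higher. The other 2 classes gave higher shares in the same reading. In clone 8, 41.1% of the 263 genes partly restored in clone 4 and 39.4% of the 132 restored there were lower at 2h, with medians of -0.38 and -0.41. In clone 4 these were 17.5% of 223 and 21.5% of 135, with medians of -0.34 and -0.43. The differences from the genes that stay low were not tested.

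These calls depended on the libraries and the scaling. Of genes chosen in clone 4, the share lower at 2h in clone 8 was 9.68% without 0h clone 8 replicate 2, where 2.92% of all genes were called in the same fit. It was 17.6% without 2h clone 8 replicate 1 (all genes 5.37%) and 16.9% without 2h clone 8 replicate 2 (3.33%). Of genes chosen in clone 8, the share lower in clone 4 was 9.04% and 6.38% without 0h clone 4 replicates 1 and 2 (all genes 1.11% and 1.35%). It was 3.78% and 8.02% without 2h clone 4 replicates 1 and 2 (0.599% and 1.51%). With scaling by library size alone the rule picked 78 genes in clone 4, of which 10.3% were lower in clone 8 (all genes 0.999%), and 1111 in clone 8, of which 0.360% were lower in clone 4 (0.147%). For the 140 members, leaving out the clone term gave 41 lower at 2h (29.3%, against 3.78% of all genes), and scaling by library size alone gave 10 (7.14%, against 1.10%). The members' median log2 fold change at 2h was -0.52 and -0.51 in these fits.

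Between 2h and 4h, 41 of the 140 members were called lower by edgeR (29.3%) and 0 higher, against 3.52% and 3.8% of all genes. The rule required the 4h libraries to be low, so these calls are largely set by the choice and nothing is read from them. The count was 22 without 4h clone 4 replicate 2 and 23 without 2h clone 4 replicate 1, where 4.74% and 4.56% of all genes were called in either direction. It was 9 without the clone term (6.43%, against 1.79%) and 2 with scaling by library size alone (1.43%, against 0.819%). The members with the highest 4h minus 2h values were Rny3, Zfp773, Gtpbp2, Napepld and Accsl, at 0.31, 0.27, 0.15, 0.12 and 0.04 in log2.

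**Figure D3:**
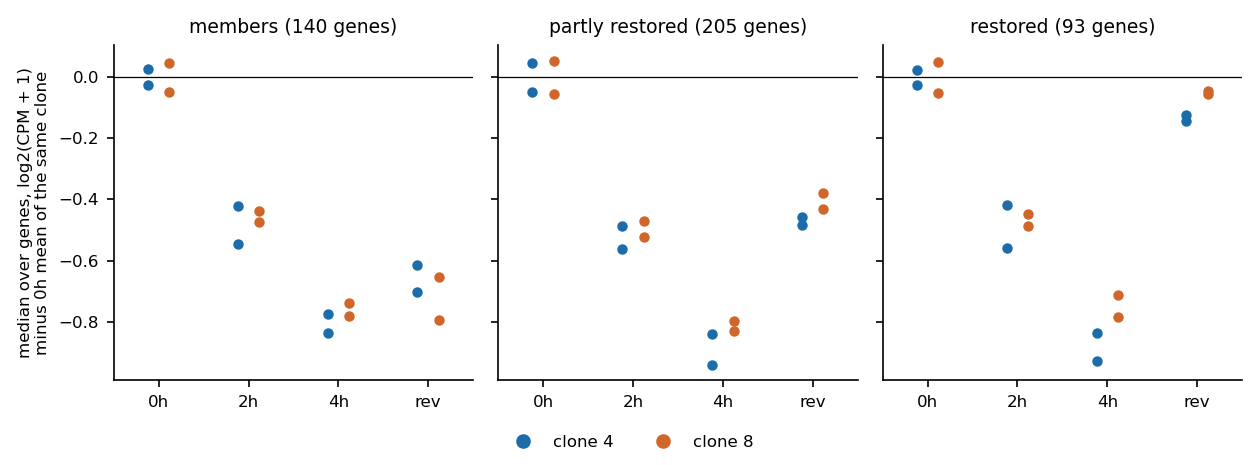
For each library of the 4 groups, the median over genes of log2(CPM + 1) minus the 0h mean of the same clone, for members, partly restored genes and restored genes. At 2h the 3 classes lie between -0.42 and -0.56, and they separate in rev as the rule requires, with members between -0.61 and -0.79.

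Per library, the median member stood at -0.42 and -0.55 in the 2h libraries of clone 4 and at -0.47 and -0.44 in those of clone 8, relative to the 0h mean of its clone on the log2(CPM + 1) scale. The medians were -0.84 and -0.78 in clone 4 and -0.78 and -0.74 in clone 8 at 4h. In rev they were -0.61 and -0.70 in clone 4 and -0.65 and -0.79 in clone 8. The lowest rev value belonged to clone 8 replicate 2, the library that stood apart.

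The same measure was then read in libraries that the choice had not used, by applying the rule in 1 clone (2 libraries a group) and testing in the other, with the scaling, filter and spread estimate shared by both. The rule picked 188 genes in clone 4, and in clone 8 edgeR called 89 of them lower at 4h than at 0h (47.3%, against 9.28% of all genes), 4 higher in rev than at 4h (2.13%, against 2.41%) and 50 lower in rev than at 0h (26.6%, against 4.9%). The median rev minus 4h value in clone 8 was 0.16 for these genes, 0.32 for those partly restored in clone 4 and 0.56 for those restored in clone 4. The rule picked 188 genes in clone 8 too, and in clone 4 edgeR called 101 of them lower at 4h (53.7%, against 10.2%), 16 higher in rev than at 4h (8.51%, against 4.76%) and 63 lower in rev than at 0h (33.5%, against 3.83%). The medians were 0.15, 0.31 and 0.49 for the corresponding classes. In both directions the medians kept the order of the classes in the other clone, and the median of the genes chosen as staying low was above 0.

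Single libraries and the scaling moved these shares, here with the share of all genes in the same fit in parentheses. Genes chosen in clone 4 and lower at 4h in clone 8 came to 24.2% (4.45%) without 0h clone 8 replicate 2, 21.8% (3.74%) without 4h clone 8 replicate 1 and 31.2% (4.78%) without 4h clone 8 replicate 2. Genes chosen in clone 8 and lower at 4h in clone 4 came to 30.3% (5.76%) without 0h clone 4 replicate 2. With library size alone the median of all genes at 4h against 0h was -0.23 in clone 8 and 0.43 in clone 4. The 78 genes then chosen in clone 4 were lower at 4h in clone 8 for 51.3% (3.24%), and the 1111 chosen in clone 8 were lower in clone 4 for 4.23% (0.851%). The share higher in rev than at 4h in clone 8 was 0.529% without 4h clone 8 replicate 2 (0.932%) or rev clone 8 replicate 1 (0.679%), 0.532% without 4h clone 8 replicate 1 (0.886%) and 3.74% without rev clone 4 replicate 1 (2.12%). In clone 4 it was 2.22% and 5.46% without 4h clone 4 replicates 1 and 2 (1.69% and 3.75%), and 2.73% and 3.21% without rev clone 4 replicates 1 and 2 (1.91% and 2.46%). It was 5.22% without 0h clone 8 replicate 2 (4.996%), 4.26% without 4h clone 8 replicate 2 (4.45%) and 13.01% without rev clone 8 replicate 1 (4.82%). With library size alone it was 0 of 78 in clone 8 (0.0655%) and 6 of 1111 in clone 4 (0.287%). The median rev minus 4h value of the chosen genes was then -0.16 in clone 8 and -0.15 in clone 4, where that of all genes was -0.50 and -0.33.

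Of the 140 members, 79 met the rule within clone 4 and 81 within clone 8, and 44 met it in both, which is 23.4% of each clone's 188 genes. Neither clone alone gave 24 members. Among the 44 were Pdgfrb, Prickle2, Slc1a4, Ccdc18, Nceh1, Zfp773, Pitpnc1, Plekha6, Elovl7 and Cux2, all from the 20 largest falls. Nceh1, a hydrolase of cholesterol esters and ether lipids, shows the pattern with little spread. Its 0h libraries read 21.2, 18.8, 19.8 and 21 CPM, the 2h libraries 11.5, 11.8, 11.7 and 11.1, the 4h libraries 8.58, 7.71, 9.49 and 7.1 and the rev libraries 7.46, 9.77, 9.78 and 6.76. No library of a later group reached the 0h range, and the 4h range lay inside the rev range. The 2h test gave a log2 fold change of -0.81 ± 0.11 SE, n = 4 against 4, edgeR adjusted p = 1.68e-06.

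**Figure D4:**
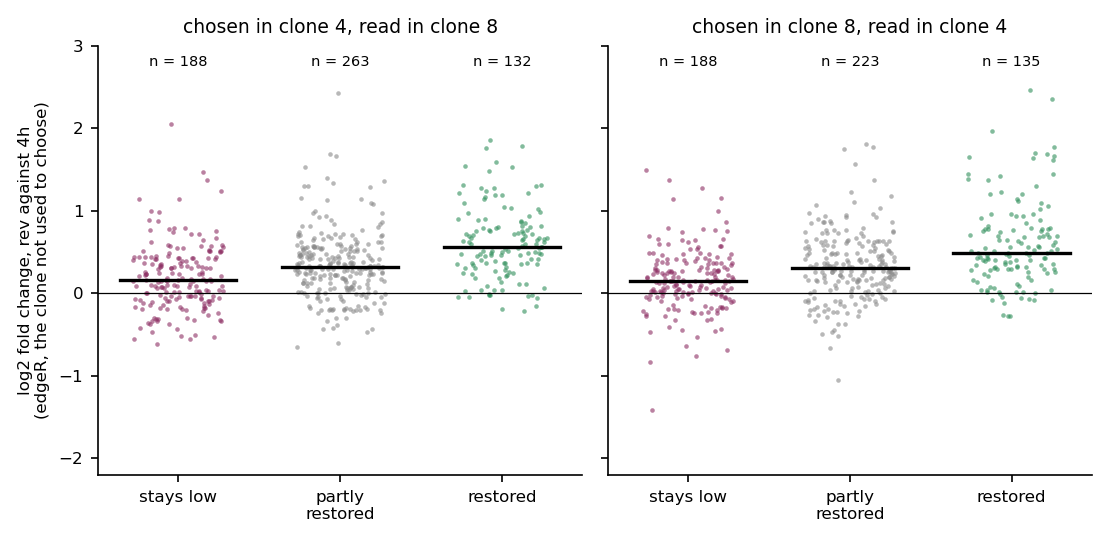
Log2 fold change of rev against 4h (edgeR) in the clone not used to choose, for genes classed as staying low, partly restored or restored in the other clone, 1 point a gene, with the median as a bar. The medians rise from 0.16 to 0.32 and 0.56 in clone 8 and from 0.15 to 0.31 and 0.49 in clone 4.

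Responses of the members were also set against each other between clones. With edgeR, 0 of 140 members differed in the 2h response (0.0901% of all genes did), 0 in the 4h response (0.311%), 0 in rev minus 4h (0.00819%) and 0 in rev minus 0h (0.0573%), and DESeq2 also called 0 in each. Unadjusted edgeR p-values under 0.05 numbered 9, 16, 10 and 15 among the 140 members, and 1228, 1417, 737 and 1103 among all 12215 genes. The smallest adjusted p was 0.0872, for the 4h response of Gpt2, with a clone 8 minus clone 4 difference of -0.59 ± 0.16 (SE) in log2. Vps13c, Pck2, Pou2f3 and Dhrs7 followed, with clone 8 minus clone 4 differences of -0.70, -0.76, 1.04 and -1.56. Sgsm1 had the smallest adjusted p for rev minus 0h, at 0.175, with a difference of 1.27 ± 0.32 (SE). A missed threshold with 2 libraries for each group and clone does not show that the clones responded alike.

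Levels differed between clones for 55 members by edgeR (39.3%), 36 higher and 19 lower in clone 8, where 29.1% of all genes differed. With scaling by library size alone 32 differed (22.9%, against 17.4% of all genes), 10 higher and 22 lower in clone 8, and the median difference over all genes was -0.26. Cdkn1b, which encodes the cyclin-dependent kinase inhibitor p27, was 1.16 ± 0.08 (SE) higher in clone 8 in log2 (adjusted p = 1.60e-13). St8sia1, the sialyltransferase that makes ganglioside GD3, was 2.10 ± 0.17 higher in clone 8 (edgeR adjusted p = 4.32e-12), with 0h values of 2.72, 4.33, 13.3 and 10.9 CPM. Ccdc136 went the other way with -2.26 ± 0.19 (edgeR adjusted p = 1.86e-11), with 0h values of 12.5, 14.3, 1.93 and 2.78 CPM. For these genes the level of a group mean rests mainly on 1 clone.

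Genes of known function were grouped after their values were seen, and 83 of the 140 members fell into 11 such groups, so the groups carry no test of their own. Their counts at 2h are to be set beside the 63.6% of all 140 members that were called lower. Transcription factors and cofactors were the largest, with 18 members, of which 12 were lower at 2h. Foxn3, a forkhead repressor, read 39.4, 29.7, 33.3 and 34 CPM at 0h, 27.8, 24.5, 25.9 and 30.4 at 2h, 14.8, 14.6, 16.5 and 22.1 at 4h and 21.3, 16.5, 21.4 and 20.7 in rev. Its 4h and rev libraries all lay below the 0h and 2h libraries, and it fell at 2h (log2 fold change of -0.29 ± 0.10 SE, n = 4 against 4, edgeR adjusted p = 0.0342). From 2h to 4h its fitted log2 value was -0.73 ± 0.11 SE. Zfp773, a zinc finger protein, was low at 2h already, with 8.69, 8.06, 8.84 and 8.45 CPM at 0h against 2.72, 4.38, 2.7 and 2.41 at 2h, 3.3, 3.97, 3.23 and 2.37 at 4h and 4.48, 2.82, 4.64 and 2.7 in rev. The 2h and 0h libraries did not overlap (log2 fold change of -1.62 ± 0.18 SE, n = 4 against 4, edgeR adjusted p = 3.38e-08). Ezh1, a Polycomb histone methyltransferase, fell at 2h with a log2 value of -0.54 ± 0.12 (edgeR adjusted p = 0.00147), and Cbfa2t2, a corepressor that binds PRDM14 in stem cells, with -0.43 ± 0.08 (edgeR adjusted p = 0.000127). The CREB-family factor Creb3l2 did not pass at 2h, with -0.32 ± 0.12 in log2 (edgeR adjusted p = 0.0591).

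Of 6 members in kinase and G protein signalling, 5 were lower at 2h. Ksr1, a scaffold that brings RAF, MEK and ERK together, read 27.4, 26.6, 18 and 22.8 CPM at 0h and 18.1, 16.6, 13.6 and 17 at 2h. It was 11, 14.6, 12 and 18.2 CPM at 4h and 14.8, 15.6, 19.7 and 11.7 in rev, and the 2h fall passed (log2 fold change of -0.52 ± 0.13 SE, n = 4 against 4, edgeR adjusted p = 0.00467). Rasa3, a GTPase-activating protein that turns RAS and RAP off, fell at 2h too (log2 fold change of -0.48 ± 0.12 SE, n = 4 against 4, edgeR adjusted p = 0.00462). The rev libraries, at 7.89, 7.6, 12.6 and 11.7 CPM, covered nearly the same range as the 4h libraries, at 7.26, 8.64, 10.6 and 12.9 CPM. Map2k6, a MAP kinase kinase for p38, missed the threshold at 2h with -0.35 ± 0.13 (edgeR adjusted p = 0.060).

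Members of Wnt signalling were a receptor and proteins that act on ligands, on beta-catenin or on cell polarity. Of 5 members, 4 were lower at 2h, all but Prickle2. The receptor Fzd2 was lower at 2h, with a value of -0.73 ± 0.21 in log2 (edgeR adjusted p = 0.013) and Wls, which carries Wnt ligands to the cell surface, was lower with -0.69 ± 0.18 (edgeR adjusted p = 0.0052). Dixdc1, a DIX-domain protein of the pathway, was lower with -0.999 ± 0.21 (edgeR adjusted p = 0.00074) and Btrc, the F-box protein that marks beta-catenin for degradation, with -0.27 ± 0.09 (edgeR adjusted p = 0.0375). None of 17 tested Wnt and beta-catenin target genes was a member, and all cultures were in the GSK3 inhibitor.

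All 6 members in amino acid metabolism and transport were lower at 2h, where 63.6% of all members and 9.68% of all tested genes were. Slc1a4, which carries alanine, serine and cysteine, read 20.9, 26.1, 19.6 and 25.9 CPM at 0h, 15, 12.3, 13.1 and 12.2 at 2h, 10.4, 10.6, 8.16 and 6.31 at 4h and 11.5, 14.6, 8.95 and 6.31 in rev. No library after induction reached the 0h range, and 3 of the 4 rev libraries were above both 4h values of their clone. Its 2h difference was a log2 fold change of -0.81 ± 0.12 SE, n = 4 against 4, edgeR adjusted p = 1.01e-05. Gpt2, the mitochondrial alanine transaminase, was at 43.5, 47.7, 89.2 and 103 CPM at 0h and 36.9, 34.6, 61.3 and 60.7 at 2h, and at 25.6, 27.6, 36.1 and 38.4 CPM at 4h. In rev it read 32.7, 33.2, 47.7 and 48.7 CPM, above 4h in both clones, and it is the member with the largest permitted regained share. Aldh18a1, the first enzyme of proline synthesis, fell at 2h (log2 fold change of -0.39 ± 0.08 SE, n = 4 against 4, edgeR adjusted p = 0.000721), as did Slc38a7, a lysosomal glutamine carrier (log2 fold change of -0.44 ± 0.09 SE, n = 4 against 4, edgeR adjusted p = 0.000278). Slc38a7 was at 24.2, 27.7, 25.3 and 26.6 CPM at 4h and 27, 24.1, 29.7 and 22.5 CPM in rev, and these ranges overlapped. Pck2, the mitochondrial PEP carboxykinase, and Gys1, the glycogen synthase of non-liver tissue, fell at 2h with -0.67 ± 0.11 and -0.32 ± 0.08 in log2 (edgeR adjusted p = 4.71e-05 and 0.00372). None of 21 tested genes of an ATF4 and stress response list was a member, where 1.15% of all tested genes were. At 2h, 7 of the 21 were called lower and 1 higher, where 9.68% and 11.4% of all tested genes were. The list held 4 repressed genes, not counting Ddit4 and Nupr1, which the rule left out by name. Both met the level and fall conditions but not the return condition, with regained shares of 0.315 and 0.482.

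Lipid metabolism and transfer held 10 members, 6 of them lower at 2h. Elovl7, a fatty acid elongase, was lower at 2h with -0.80 ± 0.15 (edgeR adjusted p = 0.000145). Ehhadh, a peroxisomal enzyme of fatty acid oxidation, fell at 2h with -0.50 ± 0.17 (edgeR adjusted p = 0.0295), and its rev libraries, at 3.41, 4.56, 3.81 and 4.06 CPM, overlapped the lower end of its 4h libraries, at 4.62, 5.72, 3.61 and 6.31 CPM. Fdps, which makes farnesyl diphosphate, did not pass at 2h (-0.42 ± 0.21, edgeR adjusted p = 0.146), and it shares exon sequence with another gene of the same strand. Glycosylation and glycan trimming held 8 members, with 4 lower at 2h. Mgat5b, which branches O-mannosyl glycans in brain, was lower at 2h with -0.79 ± 0.25 (edgeR adjusted p = 0.0217).

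Ion channels gave 6 members, 4 lower at 2h. Ano9, of the anoctamin family, read 22.8, 20.1, 23.8 and 27.9 CPM at 0h, 13.7, 8.76, 13.7 and 12.1 at 2h, 9.24, 9.81, 13.3 and 11.8 at 4h and 13.3, 12.2, 15.4 and 11.7 in rev, so that no later library reached 0h. Its 2h test gave a log2 fold change of -0.93 ± 0.11 SE, n = 4 against 4, edgeR adjusted p = 1.40e-07. In membrane traffic 6 of 7 members were lower at 2h. Among 5 members of cilium and centrosome, 4 were lower at 2h, among them Tulp3, an adaptor for receptor transport into cilia (-0.45 ± 0.10, edgeR adjusted p = 0.00172). Of 7 junction and cytoskeleton members 3 were lower at 2h. Arhgap30, a GTPase-activating protein, was lower at 2h (log2 fold change of -0.81 ± 0.14 SE, n = 4 against 4, edgeR adjusted p = 6.80e-05).

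In cell cycle and DNA repair, 4 of 5 members were lower at 2h. Cdkn1b read 20.4, 16.4, 37.3 and 44.9 CPM at 0h, 13.1, 13.1, 26.4 and 26.3 at 2h, 9.24, 8.88, 26.2 and 24.7 at 4h and 13.8, 12.2, 26.2 and 23.9 in rev. Within each clone the 3 later groups lay below 0h, and the 2h test gave a log2 fold change of -0.60 ± 0.10 SE, n = 4 against 4, edgeR adjusted p = 4.61e-05. Txnip, an arrestin-like inhibitor of thioredoxin and glucose uptake, was at 33.7, 30.7, 37.3 and 41.7 CPM at 0h and 23.2, 16.6, 29.1 and 24.4 at 2h. It stayed at 22.2, 21.3, 19.6 and 21 CPM at 4h and 21.1, 20.9, 20.7 and 20.3 in rev, so that the rev range lay inside the 4h range. Its 2h difference was a log2 fold change of -0.57 ± 0.10 SE, n = 4 against 4, edgeR adjusted p = 5.57e-05.

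Cdkn1b and Txnip are both in a list of FoxO targets and negative feedback genes of PI3K signalling, of which 21 were tested, 5 were repressed, 2 were members and 2 were restored. At 2h, 7 of the 21 were called lower and 3 higher, with a median of -0.21, where 9.68% and 11.4% of all tested genes were. These shares also stand beside the counts that follow. Of 27 tested RAS exchange factors, GAPs and adaptors, 7 were called lower and 2 higher at 2h (median -0.16), 4 were repressed and 2, Rasa3 and Ksr1, were members. Of 25 receptor tyrosine kinases 3 were called lower and 3 higher at 2h, and 1, Pdgfrb, was a member. Of 26 sterol and fatty acid synthesis genes 3 were called lower and 3 higher, and Fdps was a member. Of 43 chromatin regulators 2 were called lower and 8 higher, and Ezh1 was a member. No member came from 20 naive pluripotency factors, of which 3 were repressed and all 3 were restored, nor from 13 formative and primed epiblast genes, 12 LIF and STAT3 genes, 21 p53 targets, 26 lysosome and autophagy genes, 19 epithelial genes, 32 BMP, TGF-beta and Nodal genes or 19 ERK feedback genes. Over all tested genes 1.15% were members. By name, 4 of 406 zinc finger genes (0.985%), 4 of 202 solute carriers (1.98%), 1 of 18 forkhead genes, 1 of 145 Tmem genes, 1 of 167 ubiquitin ligase and F-box genes and 0 of 13 Klf genes were members.

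A small set of members is not annotated as protein-coding. Genes annotated as coding made up 97.9% of members and 93.1% of all tested genes. The 3 exceptions were Trerf1 and the Y RNA genes Rny3 and Rny1. Trerf1 is annotated as a processed transcript, but was counted above among the transcription factors and cofactors. Rny3 and Rny1, short RNAs of the Ro ribonucleoprotein, lie 6344 bp apart on chromosome 6 and are 102 and 112 bp long. Rny3 read 71.7, 18.6, 26.4 and 28.9 CPM at 0h, 31.2, 18.8, 16.5 and 9.02 at 2h, 24.4, 25.8, 21.8 and 20.3 at 4h and 13.5, 12.8, 12.6 and 24.8 in rev. One 0h library, clone 4 replicate 1, stood far above the other 3, 3 of the 4 rev libraries were below every 4h library, and both Y RNA genes were the 2 members not called lower at 4h. Rny3 was called lower at 2h (log2 fold change of -0.89 ± 0.24 SE, n = 4 against 4, edgeR adjusted p = 0.00781), and Rny1 was not (-0.36 ± 0.31, edgeR adjusted p = 0.439). Another gene shared exon sequence with 11 members on their own strand (7.86%, against 7.98% of all tested genes). On the opposite strand this held for 31 members (22.1%, against 30.8%). The strand setting is not given in the sources used here, so how reads there were assigned is not known.

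The annotated gene span, which the rule did not use, was longest in members by its median. Members had a median span of 50800.5 bp, partly restored genes 32134 bp, restored genes 21098 bp and all tested genes 22810 bp. Ordered by span, the shortest 110 of the 438 repressed genes held 24 members (21.8%), the next 109 held 26 (23.9%), the 109 after them 35 (32.1%) and the longest 110 held 55. Restored genes ran the other way, from 30.9% in the shortest 110 through 25.7% and 17.4% to 10.9% in the longest 110. The median share of the fall regained went from 0.564 to 0.299 over the same 4 classes. Across the 438 genes the Spearman correlation between span and the regained share was -0.264, and it was -0.250 for 243 genes at or above 10 CPM and -0.294 for 195 below. Genes share libraries and are not independent replicates, so these are descriptions. GC content of the exons had a Spearman correlation of 0.258 with the regained share and of -0.213 with span.

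When the class and the return were read in different clones, the relation with span was small. For 583 genes repressed in clone 4, the Spearman correlation between span and rev minus 4h in clone 8 was -0.096, and for 546 genes repressed in clone 8 it was 0.026 in clone 4. Over all 12207 tested genes with a span it was 0.022. The relation of GC content with rev minus 4h was 0.271 and 0.166 in the 2 clones and 0.257 over all genes. Median spans of the classes chosen in 1 clone were 33985 bp for genes that stayed low, 31338 bp for partly restored and 23009.5 bp for restored in clone 4, and 43435, 29187 and 24383 bp in clone 8.

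The share of the fall present at 2h was lower in longer genes. Among the 140 members the Spearman correlation between span and the share of the fall present at 2h was -0.468, and among all 438 repressed genes it was -0.373, where the share holds the 4h and 0h values that the choice used. Of the 47 members with the shortest spans 35 were called lower at 2h by edgeR, where 10.07% of all tested genes up to the same span were. These numbers were 33 of the next 46 against 10.08%, and 21 of the 47 longest against 7.28%. The median share of the fall at 2h was 0.674, 0.582 and 0.487 in these 3 sets, while the median 4h fall was -0.74, -0.80 and -0.73. Prickle2 and Pitpnc1 are among the 47 longest, as are Xylt1 and St3gal3, glycosyltransferases with 2h values of 0.09 and -0.000323 in log2. Between span and the 2h change itself the Spearman correlation was 0.398 in the 140 members and 0.319 in the 438 repressed genes. For genes repressed in 1 clone it was 0.135 in clone 8 and 0.066 in clone 4, each time with the 2h change of the clone that the choice had not used.

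**Figure D5:**
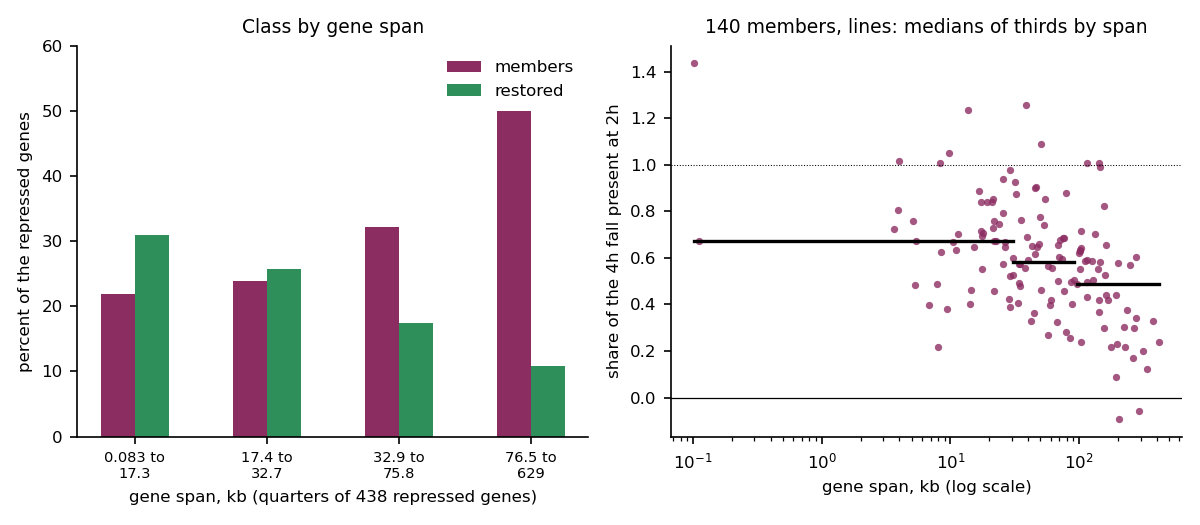
Left, the percent of repressed genes that are members or restored in 4 classes of gene span (kb). Right, the share of the 4h fall present at 2h against gene span (log axis) for the 140 members, with the medians of 3 span classes, 0.674, 0.582 and 0.487, as bars.

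Members were spread over the genome. Chromosome 11 held 14 of them, where 8.12% of all tested genes lie, and chromosome 6 held 13 (9.29%, against 4.89%). Apart from the Y RNA pair, the nearest 2 members were 2510009E07Rik and Ehhadh on chromosome 16, with 66622 bp between them.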

How the data were processed

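Ribosomal RNA-depleted total RNA of 16 libraries was sequenced, and the deposited values used here are unnormalised read counts for each gene, per the labels and as the whole numbers in the file show. The authors' tools were bcl2fastq 2.19.1 and STAR 2.5.3a with build mm10, per the submitters' processing notes. The counting tool, annotation and strand setting are not given in the sources used here. Of 52636 identifiers 52489 matched GENCODE M21 (GRCm38), which gave symbols, spans and exons.

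In R 4.3.3, genes were filtered with filterByExpr by group and scaled by TMM. edgeR 4.0.16 quasi-likelihood models with group and clone (or 8 group and clone cells, for differences between clones) were fitted to all 12215 genes and 16 libraries, two-sided, with Benjamini-Hochberg adjustment at 0.05. The model with group and clone was also run on simulated counts, for 2h against 0h alone. Those counts held no clone differences, so that run does not check the other comparisons or the clone terms. DESeq2 1.42.0, other scalings, filters, thresholds and left-out libraries were alternatives. Members, lists and the naming rule were chosen with earlier results of these data known. Named members are the 20 largest falls, the 5 most negative returns, the 5 highest CPM values at 0h, list members, the 5 smallest adjusted p-values of each clone test and of 4h against 2h, and threshold neighbours. Members outside that rule were named after their values were seen. Promoters are RefSeq entries. Some genes are not reported here.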

Additional observations from a re-analysis of the deposited data

Results flagged for a closer look

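In 220 groups of 4 libraries, from 55 named members, 9 held 1 library whose gap to its nearest neighbour was large for the range of the group by Dixon's test at the 95% level. Chance alone gives about 1 in 20 such groups. Prickle2 at 2h was 11.5 CPM in clone 4 replicate 1, the lowest, where the other 3 libraries lay between 14.7 and 15 CPM. Zfp773 at 2h was 4.38 CPM in clone 4 replicate 2, the highest, where the other 3 libraries lay between 2.41 and 2.72 CPM. Rny3 in rev was 24.8 CPM in clone 8 replicate 2, the highest, where the other 3 libraries lay between 12.6 and 13.5 CPM. Slc38a7 at 0h was 38.4 CPM in clone 8 replicate 1, the lowest, where the other 3 libraries lay between 47.6 and 48.3 CPM. Foxn3 in rev was 16.5 CPM in clone 4 replicate 2, the lowest, where the other 3 libraries lay between 20.7 and 21.4 CPM. Slc26a11 at 4h was 3.68 CPM in clone 8 replicate 2, the highest, where the other 3 libraries lay between 2.34 and 2.47 CPM. Vps13c at 2h was 22.9 CPM in clone 8 replicate 2, the highest, where the other 3 libraries lay between 20.6 and 20.9 CPM. Tulp3 in rev was 25.4 CPM in clone 8 replicate 1, the highest, where the other 3 libraries lay between 17.1 and 17.8 CPM. Gtpbp2 at 2h was 9.2 CPM in clone 4 replicate 2, the highest, where the other 3 libraries lay between 4.82 and 5.31 CPM.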

How the results depend on the processing

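The number of members depends on the rule. It was 141 with RLE size factors, of which 139 were among the 140, but 241 with library size alone (93 shared), which moves the median of all genes by -0.37 in rev minus 4h. It was 40 with a pseudocount of 5, 231, 49 and 20 with falls of 0.5, 0.8 and 1, 92 with a return of 0.2, 240 and 74 with levels of 2 and 10 CPM, and 314 without the 8 most abundant models, which raises every CPM by construction. Leaving out 1 library gave 131 to 182.

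Members lower at 2h numbered 65 to 86 when 1 library was left out (6.04% to 9.63% of all genes), 10 with library size alone (1.10%), 41 without the clone term (3.78%) and 2 with a log2 fold change of at least 1 in size, and their median log2 fold change stayed between -0.53 and -0.45 in the first 3. Those changed from 2h to 4h numbered 22 to 39 (4.56% to 6.41% of all genes), 2 (0.819%), 9 (1.79%) and 3 in the same order. For the limit on fold change no share over all genes was counted. The cause of these moves was not tested. A replicate block on clone and replicate number gave 92 and 36 (9.31% and 6.50% of all genes). Same-numbered libraries did not deviate together (mean r 0.00467 over 12 pairs, from -0.220 to 0.129, 2 over 0.1, 8646 genes). A low correlation cannot show whether the numbers pair libraries, and the labels do not say. DESeq2 gave 76 and 32, where it called 855 and 698 of all 12215 genes.

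Members that differ in level between clones numbered 44 to 58 with 1 library left out and 32 with library size alone (17.4% of all genes). Members whose response differs between clones numbered 0 to 2 (2h), 0 to 1 (4h), 0 to 0 (rev minus 4h) and 0 to 2 (rev minus 0h). Of genes chosen in clone 4, 21.8% to 49.8% were lower at 4h and 0.529% to 3.74% higher in rev in clone 8, and 0% were higher with library size alone. Of genes chosen in clone 8, 30.3% to 54.6% and 2.22% to 13.01% were in clone 4, and 4.23% and 0.540% with library size alone. Lower at 2h in the clone not used to choose were 9.68% to 31.8% of genes chosen in clone 4 and 3.78% to 16.3% of those chosen in clone 8, and 10.3% and 0.360% with library size alone, alternatives added after the data were seen. Of 935 values for 55 named members at 2h, 825 kept direction and side of the threshold, 92 no longer passed, 16 newly passed and 2 changed sign, both of Sgsm1 (-0.10 with all libraries), without 0h clone 4 replicate 1 (0.00351) or 2 (0.00145), in a range from -0.23 to 0.00351. Depth limits members under 10 CPM, 66 of the 140, for which a single library can hold as few as 2 counts.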
